A study of Homo sapiens with 5 samples.

Results

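The segment of chromosome 6 from 26 to 29 Mb (build hg19), which holds the major cluster of histone genes in band 6p22, had 239 of the 23350 methylation peaks found in 5 K562 libraries. Its members were chosen by position alone, as all peaks whose start lay in these 3 Mb. The segment itself was chosen with earlier results of these data known, which the tests below do not account for. The 239 peaks formed 92 of the 11260 regions that remained after peaks overlapping by at least 1 bp in the 5 lists were merged. MT1 contributed 36 peaks to the segment, MT2 21 and MT4 73, and wild-type bulk contributed 65 and wild-type transfected cells 44.

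The histone genes of this cluster encode the replication-dependent histones, which are made in bulk during DNA synthesis and package the new DNA into nucleosomes. They have few or no introns and lie close together with many transfer RNA genes, and beside them lie butyrophilin genes, olfactory receptor genes and zinc finger genes of the SCAN family. DNA methylation in mammals is the addition of a methyl group to cytosine, mostly in CpG dinucleotides; the promoters of active genes are usually free of it, while gene bodies and repeats usually carry it. DNMT3A is an enzyme that sets new methyl groups on DNA, and its gene is often mutated in acute myeloid leukaemia.

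The samples were K562 cells, an established human line grown from a chronic myeloid leukaemia. The labels give 3 libraries from lines with mutated DNMT3A (MT1, MT2 and MT4) and 2 wild-type libraries, one from bulk cells and one from transfected cells. The wild-type pair are thus different kinds of control, and the labels' protocol calls the mutated lines clones. The series title states that the mutations were induced with CRISPR/Cas9, and the labels give neither the alleles nor whether the clones were edited independently. All were cultured in IMDM medium with 10% fetal bovine serum, and methylated DNA was pulled down with MeDIP (methylated DNA immunoprecipitation) and sequenced. A peak list holds neither RNA nor the sequence of DNMT3A, so neither the cell type nor the genotype could be checked.

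The lists differed widely in length, with 2842 peaks in MT1, 1426 in MT2 and 8399 in MT4, against 6213 in wild-type bulk and 4470 in wild-type transfected cells. A peak is a stretch where the caller found an excess of pulled-down fragments, and the score is the caller's measure of it, on a scale that is not given in the labels. The lowest score in the files is 90, called the score limit below. Read counts were not used here, so depth is unknown. The caller's threshold is not given either, and a site without a peak is one that the caller did not report. For it, lower methylation, fewer methylated copies among the cells and a less sensitive library cannot be told apart.

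RefSeq names 53 protein-coding histone genes in this neighbourhood, between H1-1, a linker histone gene, and TRIM27, a gene of the tripartite motif family, in the gene order of its GRCh38.p14 table. They comprise 6 genes of H1, the linker histone, and 11 of H2A, 14 of H2B, 10 of H3 and 12 of H4, which form the nucleosome core. Among the protein-coding genes they stand in 4 blocks of 9, 23, 5 and 16 genes. HFE, whose product regulates iron uptake, separates the first pair of blocks. The second gap holds 9 genes that include the butyrophilins, and the third holds 5 that begin with PRSS16, a thymic serine protease gene. After the last histone block come 18 other protein-coding genes, from OR2B2, an olfactory receptor gene, to TRIM27. The same stretch holds 135 transfer RNA genes, 13 genes named ZNF, ZSCAN or ZKSCAN and 6 butyrophilin genes among 327 genes in all. Since that table is of another build than the peak files, no peak was assigned to a gene.

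Peaks were far denser here than along the rest of the chromosome in every library. MT1 had 12 peaks per Mb in the segment and 1.45 per Mb on the rest of chromosome 6. MT2 had 7 in the segment and 0.679 outside it, and MT4 had 24.3 in the segment and 4.38 outside it. Wild-type bulk had 21.7 in the segment and 2.91 outside it, and wild-type transfected cells had 14.7 in the segment and 2.29 outside it. The ratio was thus 8.26 in MT1, 10.3 in MT2, 5.55 in MT4, 7.45 in wild-type bulk and 6.41 in wild-type transfected cells. On the log2 scale the ratio averaged 2.89 ± 0.34 (SD, n = 5 libraries) and lay above 0 in 5 of 5. An exact permutation test by sign flips within libraries, two-sided, gave p = 0.063, the smallest that 5 libraries allow, and 0.078 after Benjamini-Hochberg adjustment over the 5 comparisons of the segment with the rest. Against all chromosomes outside the segment the ratio ran from 8.72 in MT4 to 14.9 in MT2.

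**Figure D1:**
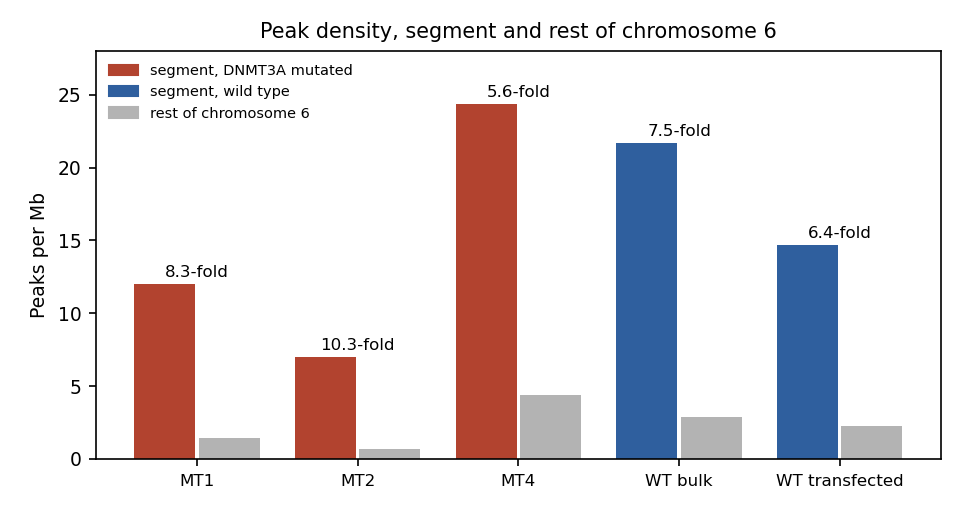
Peaks per Mb (vertical axis) in the histone gene cluster segment (coloured bars) and on the rest of chromosome 6 (grey bars) for each library, with their ratio above. The segment is denser in each of the 5 libraries, from 5.6-fold in MT4 to 10.3-fold in MT2; each bar is a single library, so there is no error bar.

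On a grid of 922 windows, each 3 Mb long and holding a peak of any list, that has the segment as a window, the segment held the most peaks in MT1, MT2 and both wild-type libraries. In MT4 it was the second, with 73 peaks against 75 in the fullest window. The median window held 2 peaks in MT1, 1 in MT2, 7 in MT4, 5 in wild-type bulk and 3 in wild-type transfected cells. With windows started at every 100 kb, a choice made after the data were seen, no window of MT1, MT2 or wild-type bulk held more peaks than the segment. In MT4 the fullest was chromosome 22 from 20.4 to 23.4 Mb with 94 peaks, and the same window held 48 peaks in wild-type transfected cells, against 44 in the histone segment.

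The segment's share of a list was 1.27% in MT1 (95% Wilson interval 0.916 to 1.75%), 1.47% in MT2 (0.965 to 2.24%) and 0.869% in MT4 (0.692 to 1.09%). It was 1.05% in wild-type bulk (0.822 to 1.33%) and 0.984% in wild-type transfected cells (0.734 to 1.32%). MT1 and MT2 lay above both wild-type libraries and MT4 below both, and all 5 intervals overlapped. The mean share was 1.20 ± 0.31% in mutated (SD, n = 3) and 1.02 ± 0.04% in wild-type libraries (SD, n = 2), a difference of 0.19 percentage points (exact permutation test over the 10 choices of libraries, two-sided, p = 0.6; smallest possible 0.2; 0.8 after adjustment over 5 comparisons of genotype). The share was highest in the pair of shortest lists. With each list limited to its 1426 best-scoring peaks the segment held 18 peaks of MT1, 21 of MT2, 18 of MT4, 20 of wild-type bulk and 17 of wild-type transfected cells. The difference was then 0.035 percentage points. It was 0.053 without MT2 and 0.35 without MT4.

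The regions were spread along the whole segment and not gathered in a single block. The first Mb held 23 regions, the second 33 and the third 36. As no peak was assigned to a gene, these positions do not show which regions lie at histone genes. Of the 30 bins of 100 kb, 2 were empty (26.4 to 26.5 Mb and 26.9 to 27 Mb), and the fullest, 27.7 to 27.8 Mb, held 7 regions. The median gap between neighbouring regions was 21.7 kb, against 62.9 kb on the rest of chromosome 6, and 23 of the 91 gaps were under 10 kb. The longest gap, 159 kb, ran from 26342244 to 26501501.

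**Figure D2:**
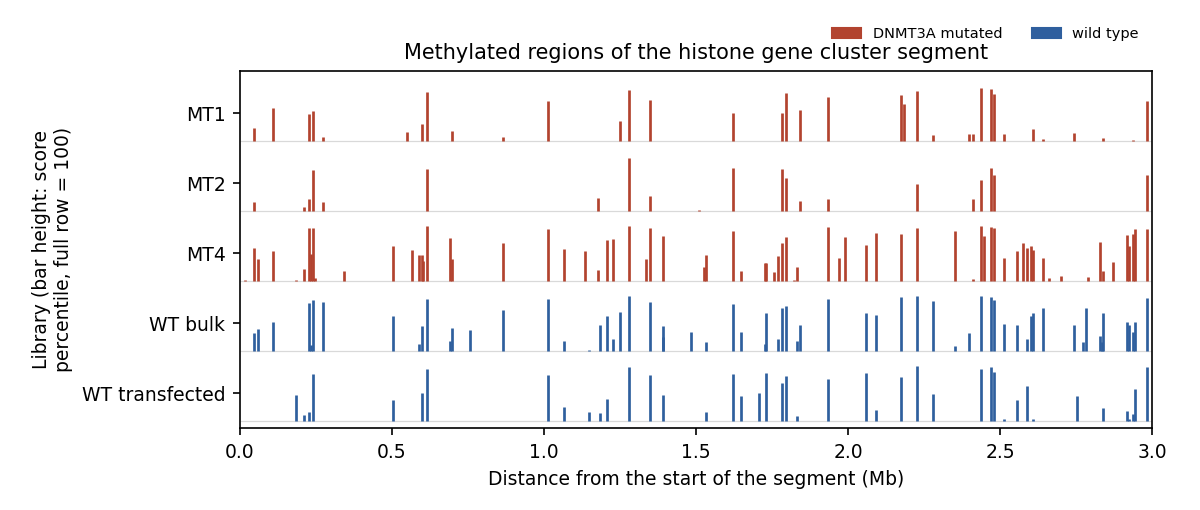
Position of the merged regions along the segment (horizontal axis, Mb from its start) in each library; the height of a bar is the percentile of the peak's score within that library's own list, and a full row is 100. The shortest list, MT2, has 21 peaks, nearly all at positions where other libraries also have a bar, and MT4 has 73.

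With gaps under 50 kb taken as joining neighbours, the 92 regions formed 18 runs, 4 of which were lone regions. The largest run, from 28350909 to 28984756, covered 634 kb and held 30 regions, 32.6% of the total, of which 4 had a peak in all 5 libraries. The next was the run from 27705847 to 27842547 with 10 regions in 137 kb, followed by the run from 27134968 to 27281114 with 8 regions in 146 kb. The runs from 26183310 to 26274176 and from 26501501 to 26615353 held 7 regions each.

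Within a single list the segment's peaks also stood closer together. The median distance from a peak to its nearest neighbour of the same list was 28.4 kb in MT1, 27.4 kb in MT2 and 13.9 kb in MT4 in the segment. On the rest of chromosome 6 it was 111 kb in MT1, 464 kb in MT2 and 37.8 kb in MT4. In wild-type bulk it was 14.1 kb in the segment and 54.4 kb outside it, and in wild-type transfected cells 24.9 kb in the segment and 67.5 kb outside it. The mean log2 ratio was -2.18 ± 1.1 (SD, n = 5), negative in 5 of 5 libraries (exact permutation test by sign flips, two-sided, p = 0.063; adjusted 0.078).

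Peaks did not end at the limits of the segment. The nearest region below it, from 25881969 to 25882694, had a peak in 1 library with a score percentile of 30.1. The nearest above it, from 29003118 to 29004686, had a peak in all 5 libraries with a mean percentile of 65.7. Just inside the limits lay a region of MT4 alone from 26017160 to 26018642, at percentile 2.55, and one of all 5 libraries from 28982104 to 28984756, at a mean percentile of 84.8.

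Peaks of the segment were somewhat wider than other peaks of the same list. The median width was 1519 bp in the segment and 1331.5 bp over all other peaks in MT1. It was 2070 bp in the segment and 1775 bp elsewhere in MT2, and 1151 bp in the segment and 1084 bp elsewhere in MT4. In wild-type bulk it was 1323 bp in the segment and 1255 bp elsewhere, and in wild-type transfected cells 1354 bp in the segment and 1182 bp elsewhere. The mean excess was 158 ± 95 bp (SD, n = 5), positive in 5 of 5 libraries (exact permutation test by sign flips, two-sided, p = 0.063; adjusted 0.078). Single peaks ran from 468 bp in wild-type bulk to 3823 bp in MT2, and the narrowest MT2 peak, 1470 bp, was wider than the median of MT4 and of both wild-type libraries in the segment.

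**Figure D3:**
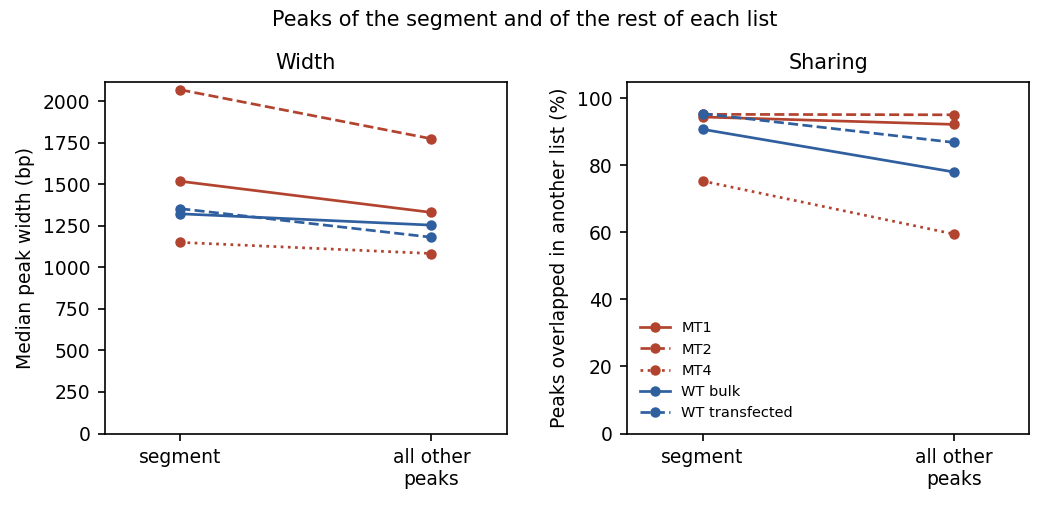
Median peak width in bp (left panel) and the percentage of peaks overlapped by a peak of another list (right panel) for the segment and for all other peaks of the same list; a line joins the pair of values of 1 library. Both measures are higher in the segment in each of the 5 libraries, with the smallest step in sharing in MT2 (95.2% and 95.1%).

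The 5 widest regions were all at least 3399 bp wide. The widest, from 26270354 to 26274176 (3823 bp), had peaks in MT1, MT2 and wild-type bulk, with a score of 93.9 for MT1, 95.5 for MT2 and 204 in wild-type bulk. The regions from 28740653 to 28744304 (3652 bp; MT1 and wild-type bulk) and from 27838919 to 27842547 (3629 bp; MT1, MT2 and wild-type bulk) came next. MT4, the longest list, had no peak in any of these 3. The pattern of MT1, MT2 and wild-type bulk without MT4 and wild-type transfected cells occurred at 2 of the 92 regions of the segment and at 9 of all 11260. Both of its members here are among the 5 widest regions of the segment.

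Score percentiles of the segment lay on both sides of those of the rest, by library and by setting. A percentile of 50 is the middle of a list, and the median over the segment's peaks was 49.3 in MT1, 49.4 in MT2 and 57.9 in MT4, and 51.6 in wild-type bulk and 48.5 in wild-type transfected cells. The mean difference from all other peaks of the list was 1.34 ± 3.89 percentile points (SD, n = 5), positive in 2 of 5 libraries (exact permutation test by sign flips, two-sided, p = 0.69; adjusted 0.69). It was -0.32 without MT4, and -6.44 when the segment was limited to 26 to 28 Mb (exact p = 0.13). It was 9.10 with lists of equal length (exact p = 0.13) and 6.47 for peaks scoring at or above 121.64, the median of all peaks (exact p = 0.31). The peaks spanned nearly the whole range, with the lowest percentiles between 1.12 and 2.43 and the highest between 94.7 and 99.2. The top 10% of the own list included 3 of 36 peaks in MT1, 1 of 21 in MT2 and 14 of 73 in MT4, and 11 of 65 in wild-type bulk and 6 of 44 in wild-type transfected cells.

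Along the segment, the Mb with the highest median percentile differed between libraries. Each median is over that library's own peaks, so these values do not show how the libraries rank the same regions. In MT1 the median percentile was 27.6 in the first Mb, 72.5 in the second and 15.1 in the third, which held 17 of its 36 peaks. In MT4 it was 47.7, 54.5 and 66.5 in the same order. In wild-type bulk it was 45.4, 47.4 and 62.8, and in wild-type transfected cells 42.6, 50.7 and 49.2. MT2 had medians of 19.8, 28.02 and 60.6 over 6, 9 and 6 peaks.

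Regions of a single library were less frequent in the segment than elsewhere, and regions of all 5 or of exactly 3 libraries more frequent. A peak in all 5 libraries was found at 15 of the 92 regions (16.3%), against 820 regions outside the segment (7.34%) and 76 on the rest of chromosome 6 (8.43%). A peak in exactly 1 library was found at 29 (31.5%), against 50.04% outside the segment. MT4 alone accounted for 18 of these 29, wild-type bulk for 6, MT1 and wild-type transfected cells for 2 each and MT2 for 1. Of the 5618 such regions in all, MT4 accounted for 3388, wild-type bulk for 1356 and wild-type transfected cells for 584. MT1 accounted for 220 of them and MT2 for 70. Regions in 3 libraries were 25% of the segment and 13.2% of the rest. MT4 with both wild-type libraries was the most frequent trio, at 14 of 23 regions, and at 897 of 1502 in all. Regions in 4 libraries went the other way, at 8.70% of the segment, 10.6% of all other regions and 12.97% on the rest of chromosome 6. Regions in 2 libraries were 18.5% of the segment and 18.8% of all others. Without MT2, 23 regions were common to the remaining 4 libraries, with 1731 over all regions. Among peaks at or above the stricter score limit, 3 were common to all 5, with 321 over all regions. The segment held between 0.953 and 1.2% of each library's peaks at that limit. The total number of regions in these settings is not given here, so these counts do not show whether the excess of common regions held.

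**Figure D4:**
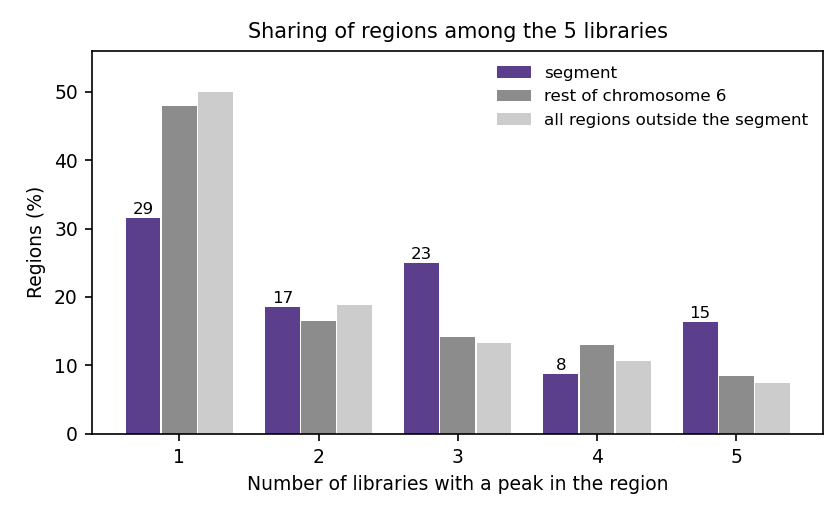
Percentage of merged regions (vertical axis) by the number of libraries with a peak in them (horizontal axis), for the segment, the rest of chromosome 6 and all regions outside the segment; numbers above the bars count the segment's regions. Single-library regions make up 31.5% of the segment and 50.04% outside it, and regions of all 5 libraries 16.3% and 7.34%.

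Per library, the share of segment peaks overlapped in at least 1 other list was 94.4% in MT1, 95.2% in MT2 and 75.3% in MT4. Over all other peaks it was 92.2% in MT1, 95.1% in MT2 and 59.5% in MT4. In wild-type bulk it was 90.8% in the segment and 78.0% elsewhere, and in wild-type transfected cells 95.5% in the segment and 86.9% elsewhere. The mean excess was 7.90 ± 6.69 percentage points (SD, n = 5), positive in 5 of 5 libraries (exact permutation test by sign flips, two-sided, p = 0.063; adjusted 0.078). An overlap counts for each library that takes part in it, so the 5 sharing values are not independent, which the test does not account for. The excess fell to 2.08 points with lists of equal length and to 1.02 points for peaks at or above the stricter score limit, with exact permutation p-values of 0.44 and 0.56. The excess was 15.8 points in MT4 and 12.7 in wild-type bulk, the longest lists, and 0.149 in MT2, the shortest.

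Base pairs covered by both lists of a pair, divided by those covered by either (the Jaccard index), were a larger fraction in the segment than outside it for 10 of 10 pairs. The 10 pairs come from 5 libraries and are not independent. Peaks are also denser in the segment, and the part of density in the index was not tested. The index ran from 0.232 (MT2 with MT4) to 0.506 (MT4 with wild-type bulk) in the segment and from 0.168 to 0.405 outside it. It averaged 0.365 over the 4 pairs within a genotype and 0.393 over the 6 pairs between genotypes in the segment. Where both lists of a pair held a region, their scores ranked it alike to a variable degree, with Spearman's rho from 0.42 (MT2 with wild-type bulk, 17 regions) to 0.85 (MT1 with wild-type transfected cells, 24 regions). Outside the segment rho ran from 0.49 to 0.58. These correlations are across regions of the same libraries and describe the lists.

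Recovery takes the regions that 2 or more of the 4 remaining libraries hold and gives the percentage of them that a given library also holds. It was 51.7% in MT1 (31 of 60; 95% Wilson interval 39.3 to 63.8%), 30.6% in MT2 (19 of 62; 20.6 to 43.0%) and 84.3% in MT4 (43 of 51; 72.0 to 91.8%). It was 91.7% in wild-type bulk (44 of 48; 80.4 to 96.7%) and 65.0% in wild-type transfected cells (39 of 60; 52.4 to 75.8%). Outside the segment it was 43.3% in MT1, 22.9% in MT2, 83.7% in MT4, 80.8% in wild-type bulk and 63.5% in wild-type transfected cells. It was higher in the segment in each library, and the value outside lay within the segment's interval in all 5, so these differences are within counting error at this number of regions. The order of the libraries changed when each list was limited to its 1426 best peaks. Recovery in the segment was then 88.2% in MT1, 87.5% in MT2 and 77.8% in MT4. It was 94.1% in wild-type bulk and 83.3% in wild-type transfected cells. These values rest on few regions, as each list then held 17 to 21 segment peaks. The limit changes both the length and the scores of a list, and the cause of the new order was not tested.

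The 15 regions of all 5 libraries scored higher, as a group, than those of fewer libraries. Their median score percentile, averaged over the libraries that hold a region, was 80.4, against 35.3 for the 29 regions of a single library, 31.4 for the 17 of 2 libraries, 48.5 for the 23 of 3 and 35.8 for the 8 of 4. Outside the segment the same medians were 77.3 for 5 libraries, 60.3 for 4, 49.4 for 3, 39.9 for 2 and 26.1 for a single library. There the median rose with each added library, which it did not in the segment. A site of high score passes the score limit in more lists, so the order is partly built in.

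The strongest was the region from 27279045 to 27281114. Its score was 198 in MT1, 189 in MT2 and 390 in MT4, against 321 in wild-type bulk and 260 in wild-type transfected cells. Its percentile within the own list was 91.7 in MT1, 94.7 in MT2 and 99.2 in MT4, against 98.2 in wild-type bulk and 96.4 in wild-type transfected cells. It was the top peak of the segment in MT2, MT4 and wild-type bulk. It was also the only 1 of the 15 whose peak was wider in every mutated line, at 1676 bp in MT1, 2070 bp in MT2 and 1701 bp in MT4, than in wild-type bulk (1637 bp) and wild-type transfected cells (1540 bp). Over all 835 regions of all 5 libraries that order held for 10.7%, and 1 of 15 is 6.67%. None of the 15 was narrower in every mutated line, against 1.68% of the 835.

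The region from 28469095 to 28470853 had the second highest mean percentile of the 15, 92.7, with a score of 208 for MT1, 136 for MT2 and 310 in MT4, against 299 in wild-type bulk and 288 in wild-type transfected cells. The region from 26612985 to 26615353 followed at 90.2, with a score of 182 for MT1, 134 for MT2 and 329 in MT4, against 251 in wild-type bulk and 229 in wild-type transfected cells. The region from 28436088 to 28437980 (88.7) held the top peak of MT1, with a score of 226, and scored 115 in MT2 and 359 in MT4, against 314 in wild-type bulk and 230 in wild-type transfected cells. The region from 28225994 to 28228188 (86.2) held the top peak of wild-type transfected cells. It scored 184 in MT1, 110 in MT2 and 275 in MT4, against 314 in wild-type bulk and 297 in wild-type transfected cells. These 5 regions also hold the 5 highest percentiles reached by any region of the segment in a single list.

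**Figure D5:**
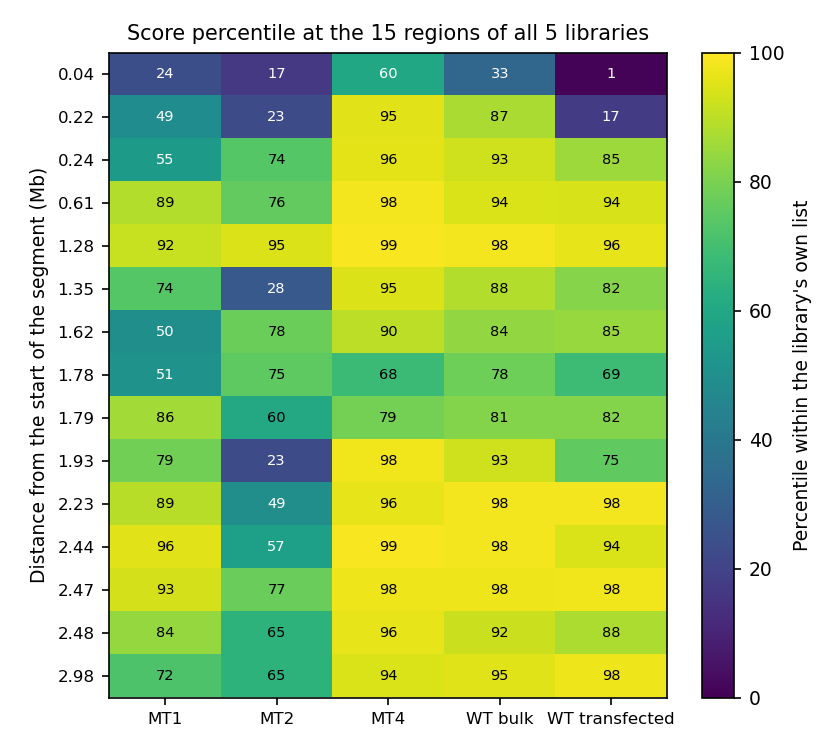
Score percentile within the library's own list (colour and number, 0 to 100) at the 15 regions with a peak in all 5 libraries, in order of distance from the start of the segment (Mb, vertical axis); columns are libraries. MT2 has the lowest value in 9 of the 15 rows and MT4 the highest in 10.

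The next of the 15 in order of mean percentile were the regions from 28478705 to 28481500 (84.9), from 28982104 to 28984756 (84.8) and from 26239408 to 26242976 (80.4). The last of these is the widest of the 15, at 3569 bp, and was at least 2077 bp wide in each library. The regions from 27794325 to 27795962 (77.7) and from 27620264 to 27622418 (77.2) came next. The regions from 27933996 to 27935584 (73.5), from 27347646 to 27349803 (73.4) and from 27781785 to 27784131 (68.3) stood lower. In the first of these 3 the mutated lines lay far apart, at percentiles of 78.7 for MT1, 22.9 for MT2 and 97.7 for MT4, against 92.9 in wild-type bulk and 75.4 in wild-type transfected cells.

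The lowest mean percentiles of the 15 were found at the start of the segment. The region from 26224745 to 26226973 had a mean percentile of 54.3, with values of 48.6 for MT1, 22.8 for MT2 and 95.5 for MT4, against 87.3 in wild-type bulk and 17.3 in wild-type transfected cells. The spread between the wild-type libraries there was nearly as wide as that between the mutated lines. The region from 26043238 to 26046636 had the lowest mean percentile of the 15, 26.9. Its peaks overlapped only in a chain, and those of MT4 and wild-type bulk did not reach that of wild-type transfected cells. The other 14 regions had a stretch common to all 5 libraries, from 42.5 to 79.2% of the merged width. Over the 15 the median distance between the outermost starts was 383 bp, and that between the outermost ends was 454 bp.

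MT2 had the widest peak at 11 of the 15, and at 67.0% of the 820 such regions outside the segment. MT4 had the highest percentile at 10 of the 15, and at 46.3% of those outside, and MT2 the lowest at 9 of the 15, and at 60.6% of those outside. MT2 and MT1 are the shortest lists, and the part of list length in this order was not tested.

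The comparison of genotypes gave few regions. MT1, MT2 and MT4 shared a peak that both wild-type libraries lacked at 1 of the 92 regions (1.09%), against 0.0710% of all 11260 regions (8 regions). It lay from 28410717 to 28412761, near the score limit in each line, with a score of 96.04 for MT1, 97.2 for MT2 and 91.9 in MT4 and percentiles of 13.1, 22.5 and 4.71 in the same order. A peak in both wild-type libraries and in no mutated line was found at 2 of the 92 (2.17%), against 2.74% of all regions. The first lay from 27145793 to 27147084, with scores of 91.1 in wild-type bulk and 97.3 in wild-type transfected cells. The second lay from 27184201 to 27186336, with scores of 123 in wild-type bulk and 96.97 in wild-type transfected cells. The mean percentiles of these 3 regions were 13.5, 9.10 and 31.4. Fewer libraries are easier to satisfy, so a rise of these numbers with a library left out is partly built in. With MT4 left out 16 regions were wild-type-only, with wild-type transfected cells left out 8 and with wild-type bulk left out 4. Over all regions the same settings gave 1205, 1665 and 892 in place of 308. With MT1 left out 2 regions of the segment were mutated-only, and 40 of all. At equal list length both counts were 0 in the segment, with 69 wild-type-only and 26 mutated-only regions in all. The total number of regions changes with the setting and is not given here. These counts therefore do not show whether the segment differed from all regions in those settings.

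Among the 15 regions of all 5 libraries, none had a higher percentile in every mutated line than in both wild-type libraries, against 1.44% of all 835 such regions. A lower percentile in every mutated line was found at 3 of the 15 (20%), against 14.0% of the 835. They were the regions that start at 28225994, 28469095 and 28982104. In the last the percentile was 72.1 in MT1, 64.6 in MT2 and 94.3 in MT4, against 95.2 in wild-type bulk and 97.5 in wild-type transfected cells. In the region that starts at 28469095 the value of MT4, 97.52, and that of wild-type bulk, 97.64, were nearly equal. Without MT4 the count was 9 of 15 (60%), against 48.7% of the 863 regions then common to all libraries. Without MT2 it was 5 of 23 (21.7%), against 15.9% of 1731, and without wild-type transfected cells 4 of 15 (26.7%), against 35.3% of 899. At equal list length it was 3 of 11 (27.3%), against 9.22% of 423. The numbers of regions are small, and no test was made of these shares.

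Differences between genotypes in width, score and extent of the segment's peaks were smaller than the spread between the mutated lines. The median width was 1580 ± 463 bp in mutated (SD, n = 3) and 1338.5 ± 22 bp in wild-type libraries (SD, n = 2), a difference of 241.5 bp (exact permutation p = 0.8), which was -3.5 bp without MT2. The median percentile was 52.2 ± 4.96 in mutated and 50.1 ± 2.18 in wild-type libraries, a difference of 2.12 points (exact permutation p = 0.8), which was -0.74 without MT4. Peaks covered 55.9 kb of the segment in MT1, 48.4 kb in MT2 and 92.99 kb in MT4, against 96.1 kb in wild-type bulk and 64.8 kb in wild-type transfected cells, between 1.61 and 3.20% of its length. The mean was 65.8 ± 23.9 kb in mutated (SD, n = 3) and 80.4 ± 22.2 kb in wild-type libraries (SD, n = 2), a difference of -14.7 kb (exact permutation p = 0.4), which was 1.001 kb without wild-type bulk. The ratio of density to the rest of chromosome 6 was 8.04 ± 2.39 in mutated and 6.93 ± 0.74 in wild-type libraries (exact permutation p = 0.8), and the difference of 1.11 was -0.03 without MT2. All 4 had an adjusted p of 0.8, and no test over these libraries can go below 0.2.

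The neighbouring segment from 29 to 34 Mb, which holds the major histocompatibility complex, was set beside the histone segment, a comparison added after the data were seen. The neighbour was itself denser in each of the 5 libraries than the rest of chromosome 6, of which it is a part. That rest held 1.45 peaks per Mb in MT1, 0.679 in MT2, 4.38 in MT4, 2.91 in wild-type bulk and 2.29 in wild-type transfected cells. Density was 12 peaks per Mb in the histone segment and 4.2 in the neighbour in MT1. It was 7 in the histone segment and 1.6 in the neighbour in MT2, and 24.3 in the histone segment and 12.2 in the neighbour in MT4. It was 21.7 in the histone segment and 7.8 in the neighbour in wild-type bulk, and 14.7 in the histone segment and 7 in the neighbour in wild-type transfected cells. The mean difference was 9.37 ± 3.50 peaks per Mb (SD, n = 5), positive in 5 of 5 libraries (exact permutation test by sign flips, two-sided, p = 0.063; 0.125 after adjustment over 4 comparisons). The median percentile was higher in the histone segment by 12.9 ± 6.05 points (SD, n = 5), in 5 of 5 libraries (exact p = 0.063; adjusted 0.125). The histone segment's medians ran from 48.5 in wild-type transfected cells to 57.9 in MT4. Their mean difference from all other peaks of the list was 1.34 points (exact permutation p = 0.69). The neighbour's medians all lay below 50, the middle of a list. They were 37.3 in MT1, 25.96 in MT2 (8 peaks), 49.5 in MT4, 42.2 in wild-type bulk and 37.3 in wild-type transfected cells. Widths differed by 36 ± 310 bp (exact permutation p = 0.75, n = 5), and the share of peaks also found in another list by 3.87 ± 9.39 percentage points (exact permutation p = 0.5, n = 5). Regions of all 5 libraries made up 16.3% of the histone segment and 6.58% of the neighbour.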

How the data were processed

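Methylated DNA immunoprecipitation sequencing (MeDIP-seq) was made in 5 K562 libraries, with paired-end reads, per the labels' protocols. The authors deposited 1 peak list per library, called on that library alone, with the start and end of each peak in base pairs and a score; peak names begin with MACS. The score, as deposited by the authors, served only to order or select peaks inside a list. The submitters' processing notes name Bowtie 1.1.1, edgeR and hg19. The caller's version, its threshold, any input control and the treatment of reads from near-identical copies, such as histone and transfer RNA genes, is each not given in the sources used here.

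Lists were merged and measured with Python 3.11.15, pandas 2.3.3, numpy 2.4.6 and scipy 1.17.1. The length of the rest of chromosome 6 was taken from the first to the last peak of any list. Genotype differences in library means were tested by exact permutation, and the segment against the rest by exact sign flips within libraries. Wilson intervals cover counting error only, and PCR copies are not independent molecules. The labels do not say whether the lines are separate editing events, so p-values measure only the spread between these libraries. Merging and class counts were tested on simulated lists. Regions named are all those of all 5 libraries, those of exactly 1 genotype, the 5 widest, the 5 with the highest percentile in any list and the largest run with gaps under 50 kb. The segment, the lists and the rules were chosen with earlier results of these data known. Alternatives were a score limit, equal list length, a library left out, 26 to 28 Mb, other comparators, an overlap of 50% and a gap of 500 bp. Sequences of the regions were not used here.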

Additional observations from a re-analysis of the deposited data

How the results depend on the processing

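No paired analysis was possible because the labels pair no mutated line with a wild-type library. The excess of density, width and sharing in the segment and the shorter gaps kept their sign in every alternative run, and none of these tests could pass 0.05. Without one library the log2 density ratio ran from 2.77 to 2.998, the log2 gap ratio from -2.36 to -1.70, the width excess from 124 to 181 bp and the sharing excess from 6.14 to 9.85 points. The score percentile of the segment against the rest ran from -0.32 (without MT4) to 2.05, and was -6.44 points for 26 to 28 Mb, -0.76 against the rest of chromosome 6, 6.47 at the stricter score limit and 9.10 at equal list length. Between genotypes, the sign of the percentile difference turned at the stricter score limit (-12.0 points) and at equal list length (-2.71), and ran from -0.74 to 3.66 without one library. The difference in covered length was 4.48 kb at equal list length and from -30.4 to 1.001 kb without one library. The width difference ran from -3.5 to 456 bp and that of the density ratio from -0.0295 to 2.35 without one library. The cause was not tested, except that equal length gives each list as many peaks. At the stricter score limit 3 regions were common to all libraries, with 321 over all regions. At that limit 0 were mutated-only and 1 was wild-type-only, with 0 and 179 over all regions. A lower percentile in every mutated line was found at 1 of the 3, and at 58 of the 321. At equal list length the mutated-only and wild-type-only counts were 0, with 26 and 69 over all regions. Without one library the counts ran from 15 to 23 (common), 1 to 2 (mutated-only) and 2 to 16 (wild-type-only). They ran from 0 to 2 (percentile above) and 3 to 9 (percentile below), since fewer libraries are easier to satisfy. Over all regions the same counts ran from 851 to 1731, 18 to 147, 322 to 1665, 15 to 174 and 192 to 420, in that order. The total number of regions in each setting is not given here, so the common, mutated-only and wild-type-only counts cannot be read as shares. Of the 15 common regions, 11 had all 5 libraries at equal list length. Recovery averaged 64.7%, from 61.2 to 86.2% over the other settings. The score limit, the caller's unknown threshold and the unknown depth limit every absence.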
